A study of Mus musculus with 18 samples.

Results

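SoxB1 and early neural genes were followed in mouse embryoid bodies, which are balls of embryonic stem cells left to differentiate in suspension. They are Sox1, Sox2, Sox3, Nes, Irx3, Ncam1, Tubb3 and Pax6, 8 of 18194 genes named on the array, and a probe set was taken as theirs if its annotation gave exactly 1 gene symbol and that symbol was one of these 8. This gave 22 of the 45101 probe sets on the array: 7 for Ncam1, 5 for Pax6, 3 for Nes, 2 each for Sox1 and Sox3, and 1 each for Sox2, Irx3 and Tubb3. The stem cells were of strain 129P2 and carried an A2lox cassette from which doxycycline induces Flag-Msgn1. In the embryo the bHLH (basic helix-loop-helix) factor Msgn1 acts in presomitic mesoderm, from which somites form. The 6 groups were uninduced and induced embryoid bodies collected 12, 24 and 48 h after day 2 of differentiation, with 3 arrays in each that the labels call biological replicates. Induced cultures received 1 µg/ml doxycycline on day 2; uninduced cultures received none, and both carried the cassette. No group had doxycycline without the cassette, so the drug and the transgene cannot be told apart. The stem cells had been kept on mitomycin-treated mouse fibroblasts in serum and LIF, and whether the line is a single clone was not stated.

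Sox1, Sox2 and Sox3 form the SoxB1 family, transcription factors that keep cells in an uncommitted or neural progenitor state. Sox2 is also a core factor of pluripotent stem cells and the epiblast, so its transcript alone does not mark neural tissue. In the embryo, cells at the primitive streak take either a neural course, in which SoxB1 genes stay on, or a mesodermal course, in which T-box and Msgn1-type factors act and SoxB1 genes are switched off. The question put to the data was whether induction of Msgn1 lowered this group of genes.

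The starts of the genes were looked at for the E-box, written CANNTG, the short palindromic sequence to which basic helix-loop-helix proteins such as Msgn1 can bind. RefSeq promoters on GRCm38.p6 were matched for 6 of the 8 genes, with 2 starts for Pax6; those of Sox3 and Ncam1 were not. In the 250 bases before the start, 6 of these 7 promoters held no CANNTG on either strand, and the second start of Pax6 held 1. Of 32841 promoters searched in the same way, 66.2% held at least 1, and 56.9% of the 13477 with a GC content of at least 55% did. The sequences of 3 genes whose transcripts differed between the groups and that of the only promoter with a match are shown 5′ to 3′, with the match in capitals; a letter match is no evidence of binding, and its absence from this window says nothing of more distant sites.
Sox2, chr3:34649745-34649994, plus strand: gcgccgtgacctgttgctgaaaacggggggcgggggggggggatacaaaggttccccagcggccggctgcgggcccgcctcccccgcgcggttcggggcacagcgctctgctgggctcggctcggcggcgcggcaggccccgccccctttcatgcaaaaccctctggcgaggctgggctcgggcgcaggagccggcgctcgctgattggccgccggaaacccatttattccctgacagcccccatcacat
Nes, chr3:87970843-87971092, plus strand: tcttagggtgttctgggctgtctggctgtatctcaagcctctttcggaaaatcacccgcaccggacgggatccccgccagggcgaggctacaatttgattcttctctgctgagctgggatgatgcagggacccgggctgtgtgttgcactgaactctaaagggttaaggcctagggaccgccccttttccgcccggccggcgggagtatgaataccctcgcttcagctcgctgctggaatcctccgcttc
Irx3, chr8:91801655-91801904, minus strand: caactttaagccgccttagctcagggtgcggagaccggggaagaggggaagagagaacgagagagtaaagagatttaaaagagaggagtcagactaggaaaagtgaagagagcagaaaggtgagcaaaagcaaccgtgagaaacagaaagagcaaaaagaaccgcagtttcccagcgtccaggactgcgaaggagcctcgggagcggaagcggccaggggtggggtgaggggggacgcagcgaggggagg
Pax6, chr2:105682213-105682462, plus strand: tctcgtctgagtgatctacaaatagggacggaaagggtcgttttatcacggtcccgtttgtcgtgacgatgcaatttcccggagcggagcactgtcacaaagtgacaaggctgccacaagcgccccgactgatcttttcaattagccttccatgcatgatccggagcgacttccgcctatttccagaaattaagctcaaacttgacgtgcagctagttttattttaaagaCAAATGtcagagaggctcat

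Msgn1 itself read 44.5 to 76.8 on the 9 induced arrays and 4.69 to 25.2 on the 9 uninduced ones, with no overlap. The median signal of an array was 18.8 to 22.1, the correlation of replicates across probe sets was 0.990 to 0.994 on the log2 scale, and no pair of arrays held identical values. The deposited values are signals on a linear scale, and tests used log2(signal + 32), which compresses changes of dim probe sets. A probe set was tested if its mean in at least 1 group reached a signal of 13.3, the 40th percentile of all values. Of the 22 probe sets 15, from 7 genes, passed this filter, 9 of them with every group mean above it. The other 7 were both Sox1 probe sets, 3 of Ncam1 and 2 of Pax6; their 126 array values ran from 0.305 to 16.7, and 10 of these values reached 13.3. Signals of different probe sets are not compared with each other, because probes differ in affinity. Arrays of whole embryoid bodies cannot tell fewer cells of a type from less RNA per cell.

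**Figure D1:**
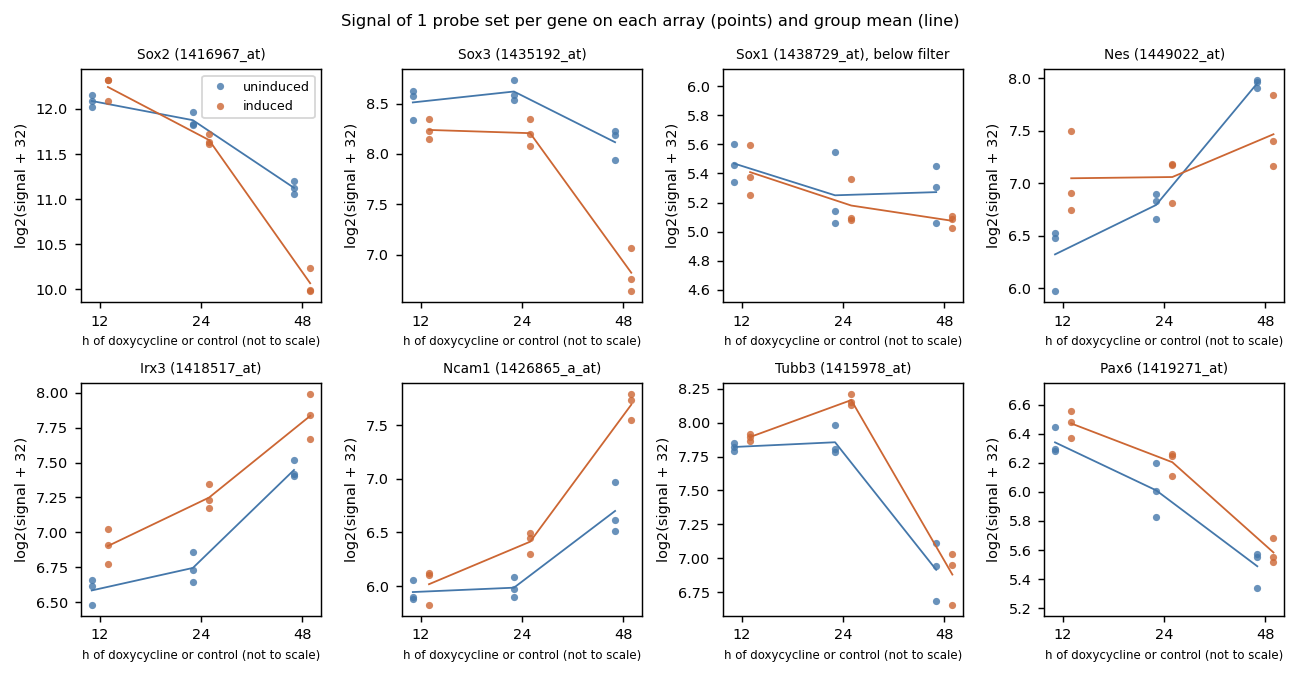
Signal of 1 probe set per gene on each of the 18 arrays, as log2(signal + 32), against hours of doxycycline or control culture. Points are arrays, lines join group means, and each panel has its own vertical scale. Sox2 and Sox3 part between the arms at 48 h with induced arrays below, Ncam1 and Irx3 with induced arrays above, Nes lines cross, and Tubb3 and Pax6 fall in both arms.

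At 48 h the 8 genes did not move as a block. Sox2 and Sox3 were lower in induced embryoid bodies, at 47.4% and 33.2% of the control signal, and Nes was lower in 1 of its 3 tested probe sets. Ncam1 and Irx3 were higher. Tubb3 and Pax6 showed no called difference, and Sox1 stayed below the filter in all 6 groups. Of the 15 tested probe sets 3 were called higher and 3 lower at an adjusted p under 0.05, beside 4.30% higher and 3.48% lower among all 30727 probe sets tested. The median change of the 15 was -0.03, and that of all probe sets 0.00. At 12 h none of the 15 was called by limma (4 had an unadjusted p under 0.05), beside 0.452% higher and 0.0814% lower among all probe sets. With a replicate block, which paired same-numbered arrays of the 2 arms within each time, 1 was. It was the Nes probe set 1449022_at (limma adjusted p = 0.0417). At 24 h 1 was called higher and none lower (7 had an unadjusted p under 0.05), beside 1.51% and 0.368%. With the replicate block 2 were called higher at 24 h. Arrays of the same number stood out as alike at this time for replicate 3 alone. Changes are given on the log2(signal + 32) scale, as one group's mean minus the other's, with the standard error of the limma fit, and adjusted p-values are limma's, by the Benjamini-Hochberg method over all 30727 probe sets.

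Sox2, the pluripotency and neural progenitor factor, read 2104, 2191 and 2319 on the uninduced arrays at 48 h and 977, 1171 and 988 on the induced arrays. Every induced array lay below every uninduced one, as in 11.5% of all tested probe sets. The change was -1.06 ± 0.0750 (n = 3 against 3, limma adjusted p = 3.11e-09). At 12 h the uninduced arrays read 4316, 4132 and 4533 and the induced arrays 4326, 5076 and 5088, which overlap, with a change of 0.15 (adjusted p = 0.537; 95% interval -0.00121 to 0.31). At 24 h the induced arrays, at 3134, 3102 and 3351, lay below the uninduced ones, at 3590, 3624 and 3975. Such an order held for 7.33% of all tested probe sets. The change of -0.22 ± 0.0750 did not pass (limma adjusted p = 0.173). The induction effect at 48 h minus that at 12 h was -1.21 ± 0.106 (limma adjusted p = 4.87e-07), and minus that at 24 h it was -0.84 ± 0.106 (limma adjusted p = 1.01e-04). Among all probe sets 1.42% had a lower and 1.58% a higher effect at 48 h than at 12 h, and 0.843% and 0.807% than at 24 h. In both arms Sox2 fell from 12 h to 48 h, by 0.96 in uninduced and by 2.17 in induced embryoid bodies.

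Sox3, a SoxB1 gene of the epiblast and early neural plate, was also lower after 48 h. Its brighter probe set, 1435192_at, read 259, 213 and 268 on uninduced arrays at 48 h and 76.2, 102 and 67.4 on induced arrays. The arms did not overlap, as for 11.5% of all tested probe sets with induced arrays below. The change was -1.30 ± 0.116 (limma adjusted p = 8.40e-08). At 24 h the induced arrays (238, 261 and 294) again lay below the uninduced arrays (339, 353 and 394). So did those of 7.33% of all tested probe sets. The change of -0.41 ± 0.116 missed the threshold (limma adjusted p = 0.0714). With 1 probe set per gene it passed, at an adjusted p of 0.0440. The 12 h change was -0.27 ± 0.116 (limma adjusted p = 0.445), and the arms overlapped, the lowest uninduced array reading 291.9 and the highest induced array 292.5. Its effect at 48 h minus that at 12 h was -1.02 ± 0.163 (limma adjusted p = 6.39e-04). The fall over time in uninduced embryoid bodies, by 0.40, lost its call when any 1 of 3 arrays was left out, at limma adjusted p up to 0.0969 without uninduced 48 h replicate 2; that in induced ones was by 1.42. The second Sox3 probe set, 1450485_at, had a group mean of at least 13.3 only in the uninduced 12 h group. It read 3.04 to 21.5 over all arrays. Its changes on induction lay between -0.18 and 0.01 and none passed.

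Sox1, the SoxB1 gene most closely tied to the neural plate, did not reach the filter in any group. Its probe set 1438729_at read 0.601 to 16.7, with a median of 6.84, and 1422205_at read 1.62 to 5.10, with a median of 2.15. On 3 of the 18 arrays the first of these reached 13.3, 2 of them at 12 h in the 2 arms (16.7 uninduced, 16.4 induced) and the third at 24 h in an uninduced culture (14.9). Sox1 was therefore not tested between the arms, and a difference was not detectable at these signals.

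The 2 detected SoxB1 genes tracked each other over the 18 arrays, with Pearson r = 0.90 between Sox2 and Sox3 on the log2 scale; the arrays share times and treatments, so this is a description. Among all other named genes the pattern of Sox2 was most like those of Usp28 (r = 0.99), Chchd10 (r = 0.98) and Zfp462 (r = 0.98). That of Sox3 was most like those of Camsap3 (r = 0.98), Foxd3 (r = 0.97) and Bmerb1 (r = 0.96). Of 18 pluripotency genes measured at 48 h, 8 were lower, 1 was higher and 9 did not pass. Beside them 4.75% of 14346 genes were lower and 5.97% higher, and the list's median change was -0.31 against 0.01 over all genes. Utf1, a chromatin-associated stem cell factor, fell by 1.18 and Nr0b1, an orphan nuclear receptor gene, by 0.85, Klf4 rose by 0.76, and Pou5f1, the central pluripotency factor, fell by 0.38 (all limma adjusted p of at most 0.00525). The summed signal of 8 stem cell and epiblast markers was 15068 to 15570 on uninduced and 12331 to 13741 on induced arrays at 48 h, with none of the 8 below the filter. At 12 h it was 15307 to 16383 uninduced and 16264 to 16868 induced, and at 24 h 15556 to 15735 and 15774 to 16704. The part of these pluripotent cells in the fall of Sox2 and Sox3 was not tested.

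**Figure D2:**
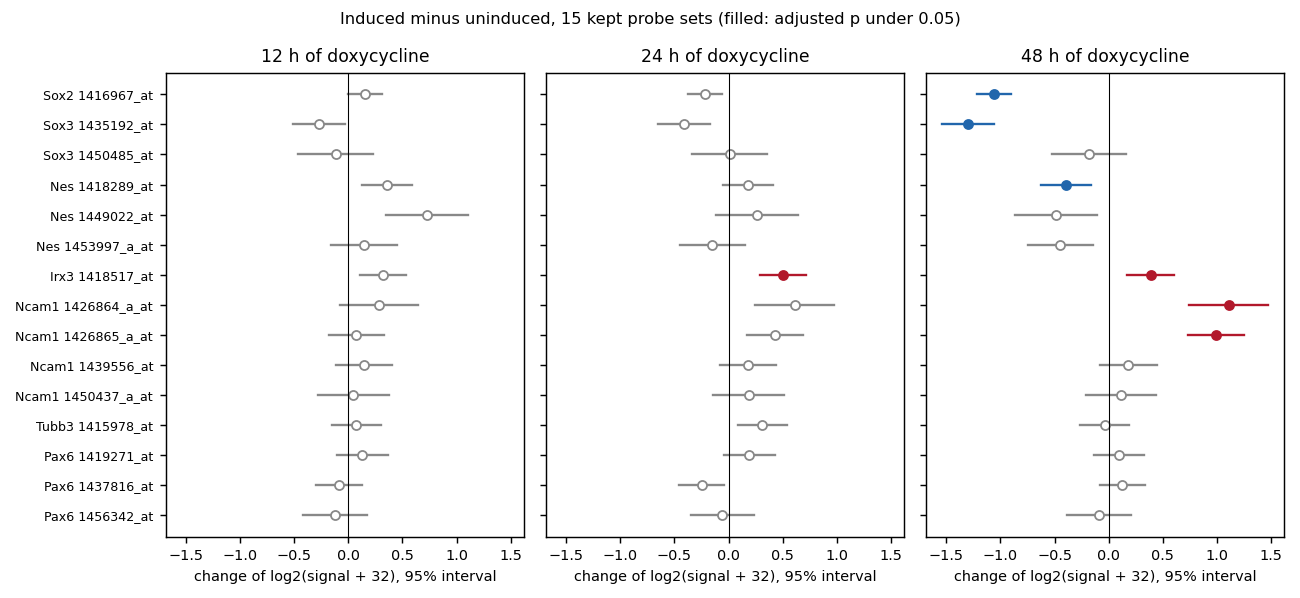
Induced minus uninduced change of log2(signal + 32) for the 15 tested probe sets at 12, 24 and 48 h. Points are estimates, bars are 95% intervals of the limma fit, and filled points passed an adjusted p under 0.05. No probe set is filled at 12 h, 1 (Irx3) at 24 h, and 6 at 48 h, 3 on each side of 0.

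Nes encodes nestin, an intermediate filament protein of neural progenitors that is also made in developing muscle and vessels. Its brightest probe set, 1449022_at, read 57.1, 30.8 and 59.99 on uninduced and 149, 87.9 and 75.2 on induced arrays at 12 h. At 48 h it read 209, 221 and 218 on uninduced and 137, 197 and 112 on induced arrays. The order of the arms was thus opposite at 12 h and 48 h, and the arms did not overlap at either time, as for 8.46% of all tested probe sets with induced arrays above at 12 h and 11.5% with induced arrays below at 48 h. The changes were 0.72 ± 0.182 (limma adjusted p = 0.0893) and -0.49 ± 0.182 (limma adjusted p = 0.120), so neither passed alone. The difference between these effects did pass, at -1.21 ± 0.257 (limma adjusted p = 0.00789).

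The second Nes probe set, 1418289_at, gave the same order. It read 44.0, 46.3 and 56.9 uninduced against 82.1, 71.6 and 61.5 induced at 12 h, and 159, 130 and 141 against 85.7, 116 and 103 at 48 h. The 12 h change was 0.35 ± 0.112 (limma adjusted p = 0.231) and the 48 h change -0.40 ± 0.112 (limma adjusted p = 0.0291). The 48 h call was lost when any 1 of 4 arrays was left out, at limma adjusted p up to 0.170 without induced 48 h replicate 1. The difference between 48 h and 12 h was -0.75 ± 0.158 (limma adjusted p = 0.00731). In uninduced embryoid bodies both probe sets rose from 12 h to 48 h, by 1.63 and 1.11; in induced ones the first changed by 0.42 ± 0.182 (limma adjusted p = 0.0861) and the second rose by 0.36 ± 0.112 (limma adjusted p = 0.0165), a call lost after quantile normalization (adjusted p = 0.0886). The third probe set, 1453997_a_at, had a group mean of at least 13.3 only in the uninduced 48 h group. It was kept through that group, so its rise of 0.56 in uninduced cultures and its 48 h change on induction of -0.45 ± 0.146 (limma adjusted p = 0.0672) are given as values and support nothing. Without induced 48 h replicate 2 the count of probe sets called lower at 48 h went from 3 to 5; the 2 added were 1449022_at (limma adjusted p = 0.0306) and 1453997_a_at, which the filter kept through the group where it was high. The genes most like Nes over the 18 arrays were Setd7 (r = 0.91), Rnf128 (r = 0.91) and Mindy2 (r = 0.90).

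Irx3, an Iroquois homeobox gene of the neural plate that is also expressed in mesoderm, was the only member called at 24 h in the fit without a replicate block; with the block, Ncam1 probe set 1426864_a_at was called too (adjusted p = 0.0479). It read 84.3, 74.1 and 67.9 on uninduced and 112, 131 and 118 on induced arrays, a change of 0.50 ± 0.104 (limma adjusted p = 0.00862), beside 1.51% of all probe sets called higher at that time. At 48 h the arrays read 151, 137 and 139 against 223, 171 and 198, a change of 0.39 ± 0.104 (limma adjusted p = 0.0210). At 12 h they read 69.1, 65.9 and 57.1 against 77.3, 98.2 and 88.2, a change of 0.32 ± 0.104 that did not pass (limma adjusted p = 0.252). Induced arrays were all above uninduced ones at each of the 3 times, as were 8.46%, 8.44% and 12.7% of all tested probe sets at 12, 24 and 48 h. The 24 h call was lost without induced 24 h replicate 2 (limma adjusted p = 0.0682) and the 48 h call when any 1 of 4 arrays was left out, at up to 0.134 without induced 48 h replicate 1. Irx3 rose over time by 0.86 in uninduced and 0.93 in induced embryoid bodies, and its effects at 48 h and 12 h differed by 0.07 ± 0.147 (limma adjusted p = 0.903). Prex1 (r = 0.97), Sh3pxd2a (r = 0.96) and Mogat2 (r = 0.96) had the most similar patterns.

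Ncam1 encodes a cell adhesion molecule of neural tissue that is also found in mesoderm. Probe set 1426865_a_at read 93.5, 59.3 and 66.3 on uninduced and 190, 155 and 182 on induced arrays at 48 h, a change of 0.99 ± 0.123 (limma adjusted p = 8.11e-06). Probe set 1426864_a_at read 52.5, 30.4 and 34.0 against 128, 104 and 130, a change of 1.11 ± 0.175 (limma adjusted p = 1.52e-04). In both, the lowest induced array stood above the highest uninduced array, as in 12.7% of all tested probe sets. At 24 h the changes were 0.43 ± 0.123 (limma adjusted p = 0.0826) and 0.61 ± 0.175 (limma adjusted p = 0.0802). With arrays of the same replicate number paired between the arms the second passed, at a limma adjusted p of 0.0479. Whether these numbers pair the arrays at 24 h was not settled. The identifiers of both sets mark probes shared by several transcripts of the gene. The effect at 48 h minus that at 12 h was 0.92 ± 0.175 for the first (limma adjusted p = 0.00312) and 0.83 ± 0.248 for the second (limma adjusted p = 0.0806). Both rose over time in each arm. The first rose by 0.76 in uninduced and 1.68 in induced embryoid bodies, and the second by 0.95 and 1.78. At 12 h the second had means of 4.44 uninduced, below the filter signal, and 13.6 induced. Its rises and its effect at 48 h minus 12 h thus start near the floor of the compressed scale. The other 5 Ncam1 probe sets ran from 0.376 to 25.1 over all arrays, and 2 of them passed the filter. Their changes on induction were 0.05 to 0.19, with no call. One of these sets, 1439556_at, was kept only through its mean of 14.0 in the induced 48 h group, so its changes support nothing.

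Over the 18 arrays Ncam1 ran opposite to Sox2 (Pearson r = -0.97) and Sox3 (r = -0.93) and with Irx3 (r = 0.92). The genes most like it were Msx1 (r = 0.98), Asb4 (r = 0.98) and Nrp1 (r = 0.98). Of 18 measured presomitic mesoderm genes 5, 11 and 13 were higher and none lower at 12, 24 and 48 h, and of 15 endothelial and blood genes 1, 4 and 7 were higher and 0, 0 and 1 lower; of 15 feeder fibroblast genes 0, 2 and 5 were higher and none lower. Beside them 0.697%, 2.17% and 5.97% of all genes were higher and 0.132%, 0.586% and 4.75% lower. Kdr, the VEGF receptor gene of blood and vessel precursors, rose by 2.39 at 48 h, and the Notch ligand gene Dll3 by 1.43. The summed signal of 6 presomitic markers was 1303 to 1557 on uninduced and 2808 to 2862 on induced arrays at 48 h, with Meox1 below the filter in every group. Most of this sum was Cyp26a1, with means of 1021 uninduced and 1804 induced. Tbx6 (35.4 and 76.7) and Hes7 (8.07 and 29.6) added little. The summed signal of 5 endothelial and blood markers was 150 to 269 and 794 to 932. That of 7 feeder fibroblast markers was 472 to 586 and 610 to 652. The endothelial, blood and feeder markers did not move together at 48 h. From uninduced to induced, the mean of Kdr went from 96.4 to 628.9 and that of Col1a2 from 111.6 to 224.6. Tal1, Cdh5, Col1a1, Col3a1 and Thy1 also had higher means. Means were lower for Pecam1 (24.0 to 19.5), Gata1 (22.9 to 12.8), Dcn (56.4 to 35.4) and Lum (16.9 to 11.6). Postn was nearly level (93.6 to 93.2). The part of presomitic, endothelial, blood or feeder cells in the rise of Ncam1 and Irx3 was not tested.

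Tubb3, a neuronal tubulin gene, gave no call on induction. At 48 h it read 107, 70.9 and 90.9 on uninduced and 68.6, 99.0 and 91.7 on induced arrays, which overlap, with a change of -0.03 ± 0.109 (limma adjusted p = 0.921; 95% interval -0.26 to 0.19). At 24 h the induced arrays (253, 265 and 249) lay above the uninduced arrays (220, 192 and 188). So did those of 8.44% of all tested probe sets. The change of 0.31 ± 0.109 did not pass (limma adjusted p = 0.188). Over time it fell by 0.91 in uninduced and by 1.02 in induced embryoid bodies. Kcnk5, Tmem160 and Pir (each r = 0.94) had the patterns most like it.

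Pax6, a paired-box factor of the neural tube and eye, fell over time in both arms in its probe set with the highest mean, 1419271_at. This set read 46.4, 55.2 and 45.9 on uninduced arrays at 12 h and 8.41, 15.0 and 15.6 at 48 h, and 50.8, 62.2 and 57.5 and then 13.9, 14.9 and 19.3 on induced arrays. It fell by 0.85 and 0.89 in the 2 arms, and the induction effects of 0.13, 0.19 and 0.09 at the 3 times did not pass (limma adjusted p of at least 0.532; 95% interval at 48 h -0.14 to 0.33). Of the other tested Pax6 sets, 1437816_at fell by 0.29 in uninduced cultures (limma adjusted p = 0.0414), a call lost when any 1 of the 6 arrays compared was left out, and 1456342_at gave no call. Their changes on induction lay between -0.25 and 0.13, with signals of 7.47 to 39.6. Cass4, Naa20 and Hat1 (each r = 0.96) were most like the first set.

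**Figure D3:**
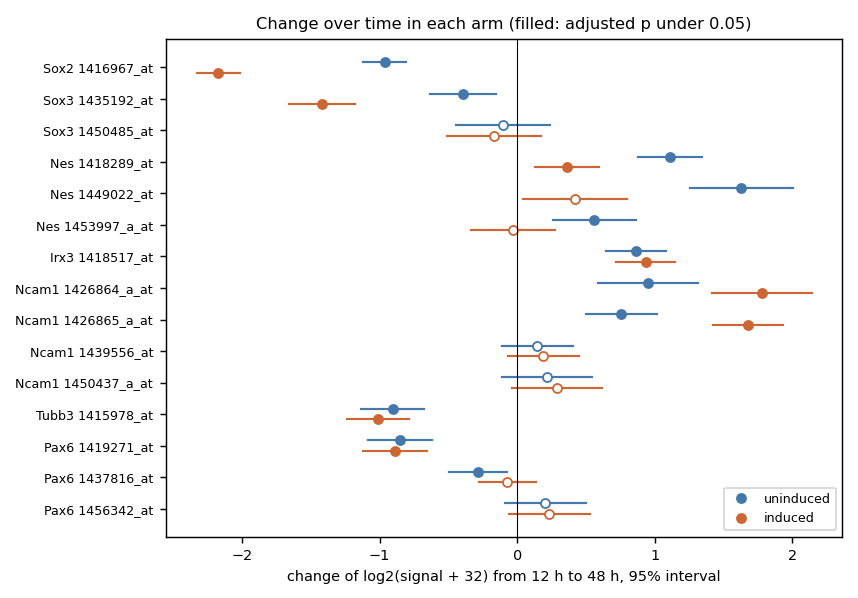
Change of log2(signal + 32) from 12 h to 48 h in uninduced and induced embryoid bodies for the 15 tested probe sets. Points are estimates, bars are 95% intervals, and filled points passed an adjusted p under 0.05. Sox2 and Sox3 lie further to the left in the induced arm, Ncam1 further to the right, Nes nearer to 0, and Irx3, Tubb3 and the Pax6 probe set 1419271_at at similar places in both arms.

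In the control cultures the genes did not rise together either. From 12 h to 48 h 6 probe sets, of Nes, Irx3 and Ncam1, rose, including the Nes set 1453997_a_at that passed the filter only at 48 h, and 5, of Sox2, Sox3, Tubb3 and Pax6, fell, beside 14.0% and 10.4% of all probe sets. In induced cultures 4 rose and 4 fell, beside 17.6% and 13.8%. The summed signal of 7 neural markers (Sox1, Pax6, Sox21, Zic1, Hes5, Neurog2 and Dcx) was 159 to 204 uninduced and 190 to 221 induced at 12 h, 140 to 188 and 152 to 162 at 24 h, and 111 to 141 and 96.7 to 133 at 48 h. The arms overlapped at every time. Sox1 and Dcx, an early neuronal microtubule protein gene, were below the filter in every group. In uninduced cultures at 48 h 4 of the 7 were below it, and in each other group 3 were. The markers did not move together at 48 h. From uninduced to induced, the mean of Sox21 went from 59.1 to 35.9, that of Zic1 from 22.7 to 27.2 and that of Hes5 from 18.5 to 20.9. The overlap of the sums therefore does not show that neural markers were unchanged.

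Other genes were counted from 9 lists, 5 of them neural, that hold 178 genes, 150 of them measured, with 1 probe set per gene. Among neural plate and regional transcription factors, of 24 measured at 48 h 6 were higher, 4 lower and 14 not called, beside 5.97% higher and 4.75% lower among all genes. The 4 lower were Pou3f1 (-1.28 ± 0.0827), a POU factor of the epiblast and anterior neural plate, Otx2 (-1.05 ± 0.0919), the forebrain and midbrain homeobox gene, and the zinc finger genes Zic5 (-1.01 ± 0.0878) and Zic2 (-0.64 ± 0.111), with limma adjusted p up to 4.53e-04. Otx2 read 2549 ± 124 (SD) uninduced and 1231 ± 228 induced. Hoxb1, a hindbrain and posterior mesoderm gene, had the largest rise in the list (1.52 ± 0.123). The list's median change was 0.09. At 12 h none of the 24 was called by limma, beside 0.697% higher and 0.132% lower among all genes, and at 24 h 2, Hoxb1 and Zfp521, were higher and 1, Pou3f1, lower, beside 2.17% and 0.586%.

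Of 18 measured neural progenitor genes 2, 5 and 6 were higher and 0, 0 and 1 lower at 12, 24 and 48 h. Among all genes 0.697%, 2.17% and 5.97% were higher and 0.132%, 0.586% and 4.75% lower, which is also the background for the neuronal, crest and inducer lists. Fabp7, a fatty acid binding protein gene of radial glia, rose at 12 h by 1.37, at 24 h by 2.05 and at 48 h by 0.53. Notch1, a receptor shared with segmenting mesoderm, rose by 0.77, 1.01 and 1.04, and Crabp1, a retinoic acid binding protein gene, by 1.07 at 48 h, when the transcription factor gene Sox9 rose by 0.68. The glutamate transporter gene Slc1a3 fell by 0.55 at 48 h. Of 21 measured proneural and neuronal genes, 2 were higher at 12 h, Neurod1 (1.24) and Insm1 (1.18), none was called at 24 h, and 2 were higher and 1 lower at 48 h. The latter were Isl1 (1.48), which is also a cardiac progenitor gene, Ebf3 (0.43) and the neurofilament gene Nefm (-0.55). Ebf3 had means of 4.53 uninduced and 17.8 induced at 48 h. It reached the filter signal only in induced groups, so its call supports nothing.

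Of 10 neural crest and border genes 4 were higher and 2 lower at 48 h: the homeobox genes Msx2 (2.02) and Msx1 (1.71), Ets1 and Snai2, against Foxd3 (-1.47), which also marks pluripotent cells, and Erbb3. Of 11 secreted neural inducers and BMP antagonists 5 were lower, led by the Nodal and BMP antagonist Cer1 (-1.64), Fgf5 (-1.32) and Lefty1 (-1.03), and 2 were higher, Bambi and Dkk1. Each of the 5 neural lists held genes called in both directions at 48 h, where 10.7% of all 14346 genes were called.

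**Figure D4:**
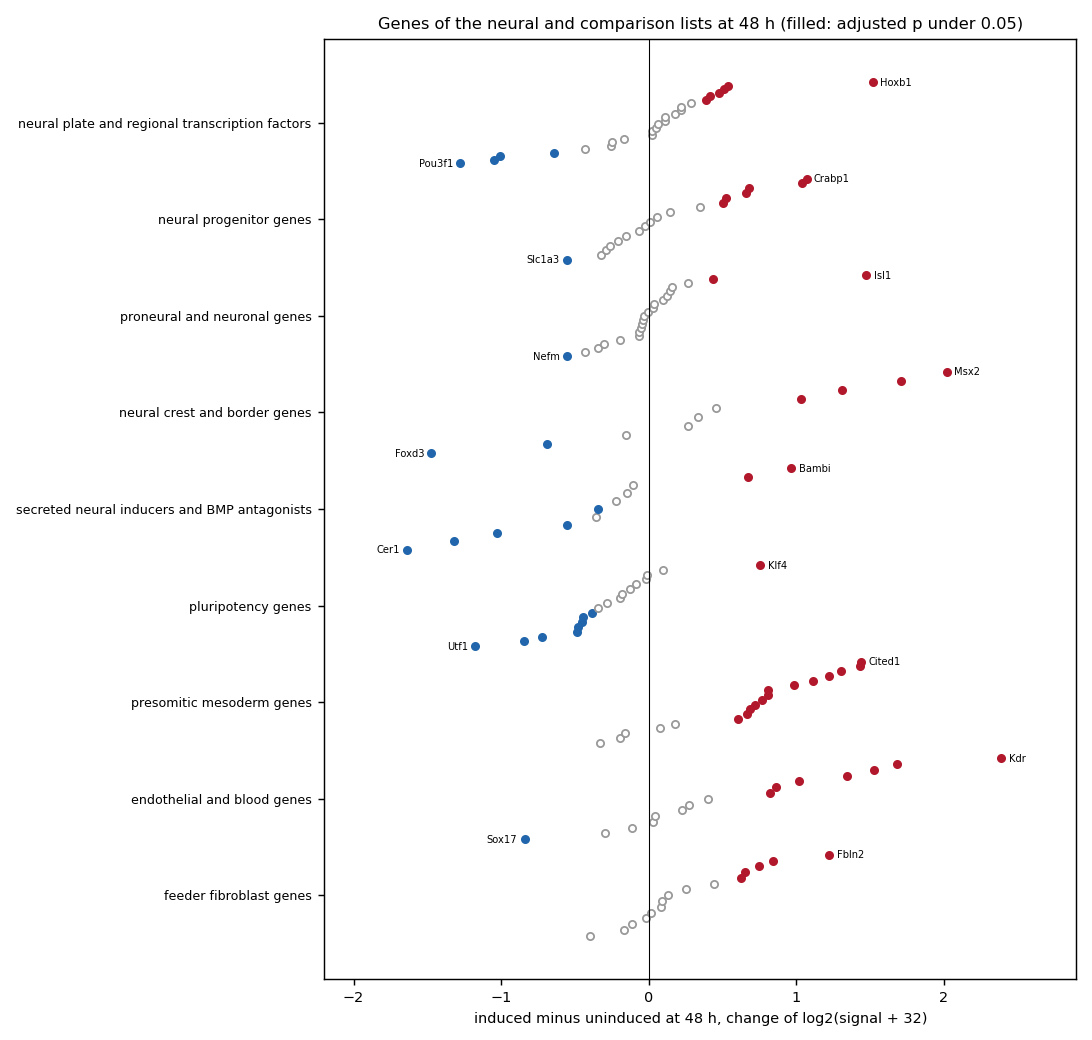
Induced minus uninduced change of log2(signal + 32) at 48 h for each measured gene of the neural lists and of the pluripotency, presomitic, endothelial and blood, and feeder lists. Each point is a gene, ordered by its change within a list, and filled points passed an adjusted p under 0.05, red above and blue below 0; the outermost called gene on each side carries its symbol. Called genes lie on both sides of 0 in each of the 5 neural lists, and on the right only among presomitic and feeder genes.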

How the data were processed

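Total RNA of 18 embryoid body cultures was measured on single-channel Affymetrix 3' expression arrays. The authors deposited linear signal intensity, with a 2% trimmed mean of 150 on each array. GCOS is named in the submitters' processing notes. How it computed and scaled signals is not given in the sources used here. No array was left out.

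Signals were transformed to log2(signal + 32). After 64 control probe sets were removed, probe sets with a group mean of at least 13.3 (the 40th percentile) were kept, 30727 in all. Changes were tested in 1 limma 3.58.1 fit (R 4.3.3) over all 18 arrays, with 1 mean per group, 12 residual degrees of freedom, moderated variances with an intensity trend, and Benjamini-Hochberg adjustment; called means an adjusted p under 0.05. Symbols were updated through Entrez identifiers, and a gene's kept probe set with the highest mean stood for it in lists and correlations. All member probe sets are described. For each list up to 3 called genes with the largest changes were to be named. The further genes named were chosen after their values were seen. These were Zic5, Zic2, Pou5f1, Ets1, Snai2, Erbb3, Bambi, Dkk1, Slc1a3, Otx1, Lhx5, Lhx2, Nr2f1, and Fabp7 and Zfp521 at 48 h. Likeness is Pearson's r over the 18 arrays, clone names and predicted genes passed over.

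The members and lists were chosen with earlier results of these data known. Deviations of same-numbered arrays correlated at 0.19, 0.11 and 0.41 at 24 h. At 12 h these values were -0.01, 0.07 and -0.08, and at 48 h -0.08, -0.02 and 0.13. The highest correlation with an array of another number at 24 h was 0.182, 0.182 and -0.169 for replicates 1, 2 and 3. Same-numbered arrays thus stood out at 24 h for replicate 3 alone, and whether the numbers pair arrays was not settled. The same-numbered value also exceeded the others for replicate 2 at 12 h (0.074 against 0.009) and replicate 3 at 48 h (0.13 against -0.02). The replicate 3 arrays at 24 h had the highest ratios of 3' to 5' Actb control signal of that time. They were 1.95 uninduced and 2.10 induced, against 1.54 to 1.68. Whether this bears on their likeness was not tested. On simulated data of 30727 probe sets for the 48 h comparison, 60% of probe sets changed by 0.5, 96% changed by 1 and 100% changed by 2 were called. In it 200 probe sets drawn at random were changed, and 11 unchanged ones were called. The measured comparison called 1322 higher and 1070 lower, so the setting differs. These rates do not give the power for the member probe sets. Figures used Python 3.11.15 and matplotlib 3.10.9.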

Additional observations from a re-analysis of the deposited data

Results flagged for a closer look

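The induction effect of 4 members differed between times when the difference itself was tested in the limma fit, n = 3 arrays in each group. Of 15 probe sets 4 had a lower and 1 a higher effect at 48 h than at 12 h, beside 1.42% and 1.58% of all. Against 24 h 2 were lower and 0 higher, beside 0.843% and 0.807% of all. For Sox2 the effect at 48 h minus that at 12 h was -1.21 and minus that at 24 h -0.84, and for the Sox3 probe set 1435192_at these differences were -1.02 and -0.88. For Nes the difference between 48 h and 12 h was -0.75 in probe set 1418289_at and -1.21 in 1449022_at. In both, all induced arrays lay above the uninduced ones at 12 h and below them at 48 h. Each order taken alone held for 8.46% and 11.5% of all tested probe sets, and the share with both was not counted. For Ncam1 probe set 1426865_a_at the difference between 48 h and 12 h was 0.92.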

How the results depend on the processing

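Alternatives were quantile normalization, no filter or one at the 60th percentile, log2(signal + 16), 1 probe set per gene, moderation of the variances with no trend or a robust one, the arrays of a comparison alone, a replicate block, and leaving out each array. The 48 h calls of Sox2, Sox3 probe set 1435192_at and Ncam1 probe sets 1426864_a_at and 1426865_a_at held under each of these. Of the single member results called, 279 kept their call and 7 lost it under the other settings, and 220 kept and 20 lost it without 1 array; none of these turned direction. The cause of changed calls was not tested. For induction effects the replicate block was a fit of the differences between same-numbered arrays of the arms within each time. For changes over time it was a term for the replicate number.

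With the replicate block, members called higher became 1 at 12 h, 2 at 24 h and 2 for the 48 h minus 12 h effect; probe sets called lower became 54 at 12 h and 177 at 24 h; and the 48 h call of Nes 1418289_at was lost (adjusted p = 0.0503). With the arrays of the comparison alone, members called higher at 24 h became 0 (Irx3, adjusted p = 0.0738), all probe sets 223 higher and 33 lower, and the 48 h call of Nes 1418289_at was lost (adjusted p = 0.0572). Without a filter 15 were lower at 12 h. With 1 probe set per gene, 1 member was lower at 24 h, and over time 3 members and 2657 genes rose in uninduced and 2 members and 3247 genes in induced cultures, where 2692 genes fell; fewer probe sets were tested.

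Without 1 array, probe sets called higher and lower ran from 82 to 121 and from 7 to 19 at 12 h, from 288 to 422 and from 39 to 104 at 24 h, and from 925 to 1208 and from 729 to 995 at 48 h. For the effect at 48 h they ran from 164 to 290 and from 163 to 300 against 24 h, and from 361 to 512 and from 321 to 486 against 12 h. Members called higher ran from 0 to 2 at 24 h and lower from 2 to 5 at 48 h, 3 to 6 rose over time in induced cultures, 3 to 4 fell in uninduced ones, and for the effect at 48 h 0 to 1 were higher and 2 to 3 lower against 24 h and 1 to 2 higher and 4 to 5 lower against 12 h.

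Results that were not called turned direction without some arrays. On induction these were Ncam1 1450437_a_at (-0.12 to 0.17 at 12 h, -0.023 to 0.20 at 48 h), Pax6 1456342_at (-0.21 to 0.0012 at 12 h, -0.28 to 0.084 at 48 h), Sox3 1450485_at (-0.068 to 0.14 at 24 h) and Tubb3 (-0.15 to 0.078 at 48 h). Over time they were Sox3 1450485_at (-0.24 to 0.035 uninduced, -0.27 to 0.0039 induced) and Nes 1453997_a_at (-0.21 to 0.081 induced). For the effect at 48 h minus 24 h they were Ncam1 1439556_at (-0.13 to 0.089, and -0.0041 after quantile normalization), Ncam1 1450437_a_at (-0.21 to 0.013) and Pax6 1456342_at (-0.23 to 0.14). For 48 h minus 12 h they were Sox3 1450485_at (-0.20 to 0.11), Irx3 (-0.010 to 0.15), Ncam1 1439556_at (-0.092 to 0.13), Ncam1 1450437_a_at (-0.069 to 0.23), Tubb3 (-0.22 to 0.0047), Pax6 1419271_at (-0.11 to 0.0082) and Pax6 1456342_at (-0.16 to 0.21). Signals near 13.3 and 3 arrays a group limit what can be seen of the dim probe sets.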
